A study of Mus musculus with 4 samples.

Results

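Notch signalling in the mouse aorta is described here through 10 genes named by symbol among the 32285 genes measured: the receptors Notch1, Notch2, Notch3 and Notch4, the ligands Jag1 and Dll4, and the target genes Hes1, Hey1, Hey2 and Heyl. Each gene was followed through 6 cell classes in 4 single-cell RNA libraries. Dll4, Notch4 and Notch1 were higher in endothelial than in smooth muscle and fibroblast sums. Hey2, Heyl and Notch3 were higher in smooth muscle than in fibroblast sums, and Notch1 was higher in macrophage than in smooth muscle sums. Between libraries, Dll4, Notch4 and Notch1 were lower in the endothelial class of both western diet libraries than in that of both normal diet libraries, and Hes1 was lower there in the endothelial and smooth muscle classes alike. The endothelial markers were lower in the same western diet sums (162 and 255 against 564 and 805 CPM), and in barcodes that matched the endothelial class alone Notch1 in the LysM-DKO/ApoE-/- library (232 CPM) was not below the WT normal diet library (226 CPM).

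Notch receptors are membrane proteins that are cut when a Jagged or Delta-like ligand on a neighbouring cell pulls on them. The freed intracellular part enters the nucleus, binds the DNA-binding protein RBPJ and raises the transcription of Hes and Hey genes, which encode basic helix-loop-helix repressors. In arteries the endothelium and the smooth muscle layer signal to each other through this pathway, with Notch3 known as the receptor of mural cells and Dll4 and Notch4 as endothelial genes.

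WT and LysM-DKO mice made up the normal diet groups, and WT/ApoE-/- and LysM-DKO/ApoE-/- mice the western diet groups. Each group had 1 library, and values below keep this order. ApoE-/- mice lack apolipoprotein E and develop atherosclerosis. What LysM-DKO abbreviates is not written in the labels. The series title names epsins, endocytic adaptor proteins, and LysM is the usual name of a Cre driver active in macrophages and other myeloid cells, so the wall cells described here are not those such a driver would target. Each library came from enzymatically digested aorta and was made with a 10x Genomics 3′ kit. The number, age and sex of the animals are not given in the labels. Differences between groups therefore rest on single libraries, have no replicate check and carry no p-value.

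Barcodes with at least 1000 UMIs (unique molecular identifiers, counts of captured RNA molecules) and at most 10% mitochondrial UMIs numbered 7758, 8230, 13744 and 8133. Their median UMI counts were 4167, 3404, 2103 and 6761. Xist stood at 950 and 950 CPM in the normal diet libraries and at 0.636 and 0.563 CPM in the western diet libraries, while Ddx3y, a Y-linked gene, was at 0, 0, 117 and 124 CPM. The sex of the cells, the ApoE-/- background and the version of the counting software therefore differ together with diet and cannot be told apart from it. Erythroid markers in the smooth muscle class summed to 10200, 17440, 377 and 53.3 CPM. Between 38 and 129 barcode sequences were shared by any pair of libraries.

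A barcode took the first class it matched in a fixed order, by summed UMIs: macrophage (C1qa, C1qb and C1qc, at least 5), B (Cd79a and Ms4a1, at least 2), T (Cd3d, Cd3e and Trac, at least 2), endothelial (Pecam1 and Cdh5, at least 2), fibroblast (Pdgfra and Serpinf1, at least 3) and smooth muscle (Myh11 and Cnn1, at least 3). This gave 732, 880, 394 and 417 endothelial barcodes, 3690, 3487, 8836 and 6636 smooth muscle barcodes, 628, 751, 634 and 654 fibroblast barcodes, and 92, 208, 939 and 135 macrophage barcodes. T barcodes numbered 738, 645, 315 and 33, and B barcodes 773, 1121, 503 and 14. Levels are UMIs summed over a class in a library, as CPM of all UMIs in that sum. Intervals are exact 95% intervals that cover counting error only.

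The smooth muscle and fibroblast classes carried the defining markers of their names. Acta2, the smooth muscle actin, stood at 17440, 15160, 17420 and 19250 CPM in the smooth muscle class, and the 6 fibroblast markers (Dcn, Col1a1, Lum, Gsn, Pi16, Dpt) summed to 31340, 26740, 25890 and 22070 CPM in the fibroblast class. The 6 macrophage markers (Csf1r, Adgre1, Cd68, Lyz2, Fcgr1, Mrc1) summed to 6155, 3260, 5609 and 2836 CPM in the macrophage class.

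The endothelial class was mostly mixed, and the other classes ahead of smooth muscle held mixed barcodes as well. All 6 endothelial markers (Vwf, Kdr, Cldn5, Egfl7, Emcn, Tie1) were detected in every library and summed to 564, 805, 162 and 255 CPM, but Acta2 stood at 13780, 10160, 8384 and 11210 CPM in the same class. Of its barcodes 78.1%, 69.4%, 78.9% and 83.2% also passed the smooth muscle threshold. The same share was 56.5%, 61.5%, 41.9% and 34.1% in the macrophage class, 39.7%, 44.6%, 35.5% and 27.7% in the fibroblast class, 60.2%, 69.6%, 19.7% and 42.4% in the T class, and 62.4%, 67.1%, 17.9% and 21.4% in the B class. Exactly 2 UMIs of Pecam1 and Cdh5, the threshold, were held by 42.2%, 38.5%, 60.15% and 45.6% of endothelial barcodes. Endothelial barcodes that matched no other class numbered 138, 249, 63 and 51. Their median depth was lower, at 2681, 2479, 3801 and 4535 UMIs against 6582.5, 4527, 7477.5 and 7783 in the whole class. The part of depth in the single-match values was not tested. In these single-match barcodes the 6 endothelial markers summed to 1977, 2088, 746 and 1464 CPM and Acta2 stood at 2345, 2236, 1303 and 867 CPM. They still held markers of several vessel types, with lymphatic genes (Prox1, Mmrn1, Ccl21a) at a sum of 379, 398, 278 and 517 CPM and arterial genes (Gja5, Gja4, Sox17) at 281, 373, 203 and 361 CPM. Fibroblast markers summed there to 2974, 1792, 11460 and 7375 CPM. Single-match values are given beside those of the assigned class for the contrasts of endothelium with the other wall classes and for the ratios between libraries that turn on them, while the pathway genes below are given for the assigned classes alone. Smooth muscle comes last in the order, so its barcodes match a single class by construction.

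Classes were compared with edgeR's quasi-likelihood test on 16 sums (endothelial, smooth muscle, fibroblast and macrophage in 4 libraries), with the library as a block and p-values adjusted by Benjamini-Hochberg over 12917 genes. All 10 members passed the filter on low counts. A gene was called at an adjusted p under 0.05.

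**Figure D1:**
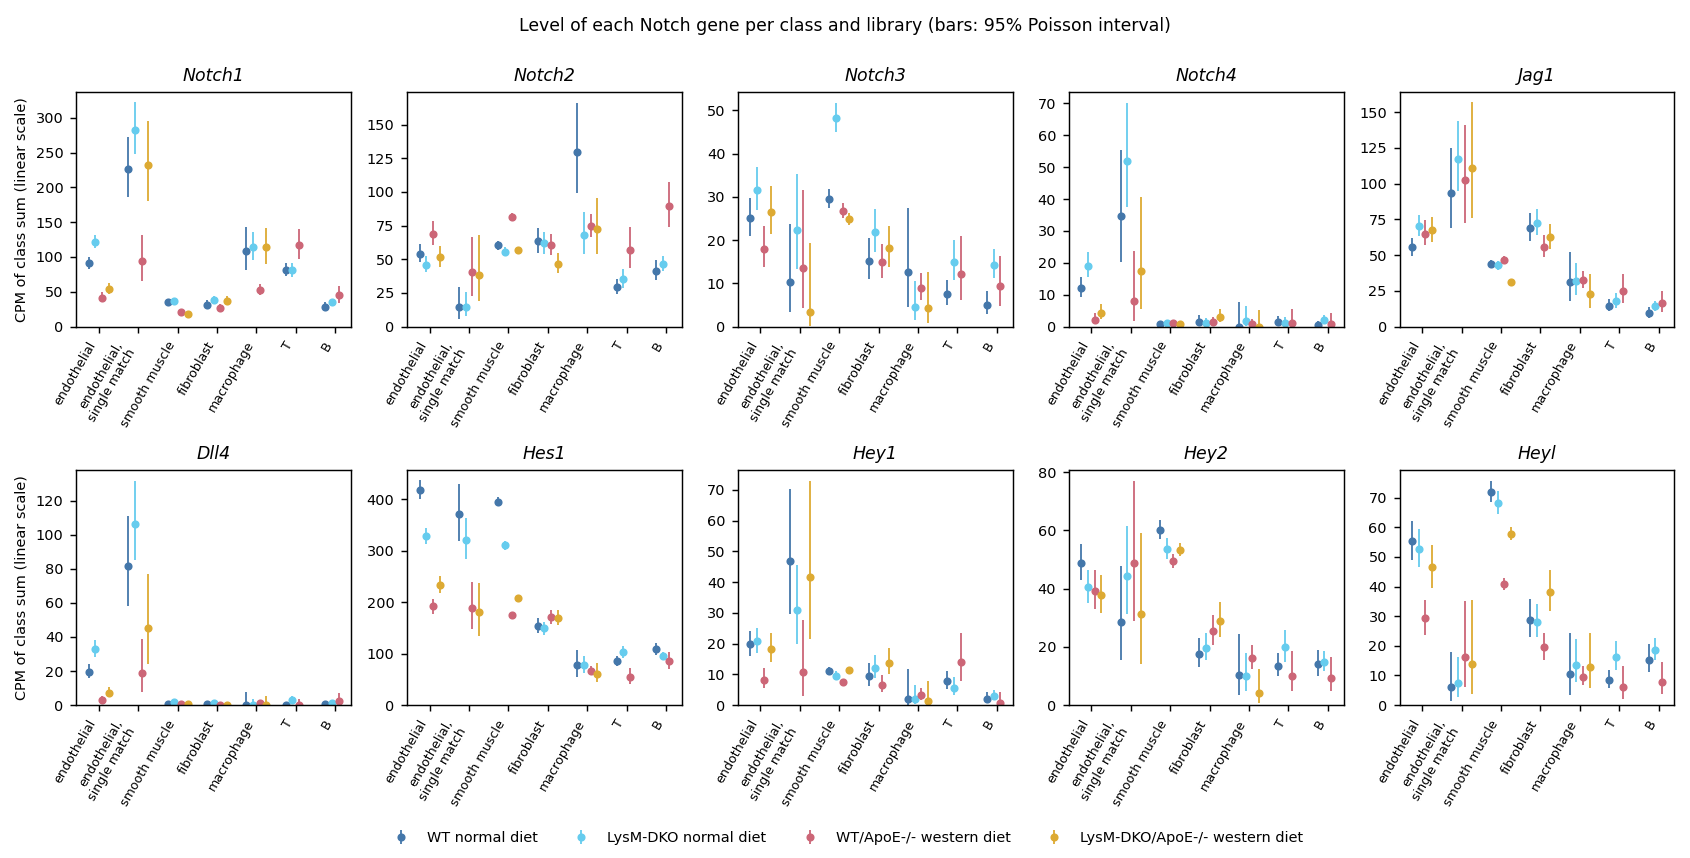
Level of each gene (CPM, linear axis from 0, bars 95% Poisson intervals) per class and library, with the endothelial class as assigned and as single-match barcodes. Sums of fewer than 50 barcodes (T and B in the LysM-DKO/ApoE-/- western diet library) are left out. In each library Dll4 and Notch4 are highest in endothelial barcodes, Hey2 and Heyl stand highest in smooth muscle, and Notch1 is also high in macrophage and T sums.

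Dll4, the Delta-like ligand of arterial and sprouting capillary endothelium (chr2:119325784-119335962, plus strand, GRCm38), stood highest in endothelial sums but was not confined to them. In the endothelial class it stood at 19.7, 32.8, 2.95 and 7.04 CPM, from 100, 167, 10 and 25 UMIs. The single-match barcodes held 81.4, 106, 18.9 and 45.1 CPM. Smooth muscle held 0.864, 1.57, 0.611 and 0.601 CPM, from 20, 27, 21 and 29 UMIs. Fibroblasts held 0.351, 1.36, 0 and 0.301 CPM, against a level of 1.05, 0.819, 0.767 and 0.903 CPM that 3 counts would give in the fibroblast sums. In the WT/ApoE-/- western diet library the B sum held 2.35 CPM, from 3 UMIs. The endothelial and smooth muscle ranges did not overlap in either version.

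The difference between endothelial and smooth muscle sums was 3.77 ± 0.43 (log2 fold change ± SE, adjusted p = 5.85e-05) for Dll4. In single-match barcodes it was 5.98 ± 0.38 (adjusted p = 4.30e-08). Against fibroblasts Dll4 was higher by 4.75 ± 0.61 (adjusted p = 7.79e-05), and by 8.59 ± 0.64 in single-match barcodes (adjusted p = 4.33e-07). The share of barcodes with a Dll4 UMI, after thinning each barcode to 1000 UMIs, was 4.24%, 3.41%, 0.508% and 1.44% in the endothelial class, and 8.74%, 12.7%, 2.03% and 4.80% without thinning. In smooth muscle the thinned shares were 0.136%, 0.402%, 0.0566% and 0.0151%. T barcodes, which should lack Dll4, had 0% after thinning in all 4 libraries, and 0.136%, 1.24%, 0% and 0% before.

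Notch4, a receptor found mainly on endothelium (chr17:34564268-34588503, plus strand), followed the same order of classes. Endothelial sums held 12.02, 19.1, 2.07 and 4.22 CPM (61, 97, 7 and 15 UMIs) and the single-match barcodes 34.6, 51.9, 8.11 and 17.4 CPM. The smooth muscle range was 0.691 to 1.11 CPM and the fibroblast range 1.09 to 3.01 CPM, so the WT/ApoE-/- western diet endothelial sum lay within the fibroblast range. Notch4 was higher in endothelial than in smooth muscle sums by 3.10 ± 0.50 (adjusted p = 0.00114), and by 4.86 ± 0.52 in single-match barcodes (adjusted p = 4.44e-06). Against fibroblasts it was higher by 2.25 ± 0.58 (adjusted p = 0.0109), a call lost without the WT or the LysM-DKO normal diet library (1.90 and 1.49). In single-match barcodes that difference was 4.35 ± 0.61 (adjusted p = 0.000109). An annotated gene on the other strand overlaps Notch4 (Gm20462) and Dll4 (Gm14207), and the strand setting of the counting is not given in the sources used here.

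Over the 16 sums, with each library's mean taken out, Dll4 and Notch4 had a Pearson r of 0.950 on log2(CPM + 5), a description across sums that share libraries. Promoter bases of both are shown because these genes varied together. Those of Hey2 are shown because it alone among the 7 members with an entry held the core letters TGGGAA bound by RBPJ (either strand). Hes1, Hey1 and Heyl had no entry, so Hey2 was the only target gene among the 7. Each line gives the 250 bases upstream of the RefSeq start on GRCm38.p6, 5′ to 3′ in the gene's direction, with the core letters in capitals where present.
Dll4, chr2:119325534-119325783, plus strand: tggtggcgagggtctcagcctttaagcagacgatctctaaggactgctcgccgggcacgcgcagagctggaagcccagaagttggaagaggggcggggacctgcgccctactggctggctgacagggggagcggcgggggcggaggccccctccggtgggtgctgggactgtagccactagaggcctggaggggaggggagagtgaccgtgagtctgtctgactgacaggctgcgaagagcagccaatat
Notch4, chr17:34564045-34564294, plus strand: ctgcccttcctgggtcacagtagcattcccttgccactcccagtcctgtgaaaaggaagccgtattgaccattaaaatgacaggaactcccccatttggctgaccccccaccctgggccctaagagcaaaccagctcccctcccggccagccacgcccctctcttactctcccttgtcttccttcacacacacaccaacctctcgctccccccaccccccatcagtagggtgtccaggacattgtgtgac
Hey2, chr10:30842784-30843033, minus strand: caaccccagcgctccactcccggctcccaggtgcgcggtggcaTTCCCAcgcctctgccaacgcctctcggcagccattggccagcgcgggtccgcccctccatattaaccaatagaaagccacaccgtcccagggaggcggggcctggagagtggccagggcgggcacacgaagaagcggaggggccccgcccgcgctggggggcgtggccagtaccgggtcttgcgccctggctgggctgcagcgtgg
The Hey2 match, in the form TTCCCA, starts 207 bases upstream of the start. TGGGAA on either strand is held by 21.6% of 32851 promoter windows of this length. The windows of Dll4, Notch4, Notch1, Notch2, Notch3 and Jag1 held none, and the E-box CACGTG was in none of the 7 windows against 6.02% of all. Base composition differed, with 71.6% G and C in Hey2, 65.6% in Dll4 and 58.4% in Notch4.

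Notch1, the receptor with the widest role in endothelium and lymphocytes (chr2:26457903-26516663, minus strand), was higher in endothelial than in smooth muscle sums in every library. The endothelial class held 91.4, 122, 41.6 and 54.3 CPM, the single-match barcodes 226, 283, 94.6 and 232 CPM, and smooth muscle 35.1, 36.2, 21.2 and 18.7 CPM. The lowest endothelial library lay above the highest smooth muscle library. The difference was 1.35 ± 0.19 (adjusted p = 0.000347), and 2.81 ± 0.21 in single-match barcodes (adjusted p = 1.67e-07). Fibroblasts held 30.9, 37.7, 26.6 and 36.4 CPM, lower than the endothelial class by 1.07 ± 0.20 (adjusted p = 0.00127, endothelial minus fibroblast), and than the single-match barcodes by 2.54 ± 0.23 (adjusted p = 1.84e-06). Smooth muscle and fibroblast sums did not pass the test against each other (-0.29, adjusted p = 0.264).

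Macrophages carried Notch1 at 109, 115, 52.9 and 114 CPM, T barcodes at 81.0, 80.6, 117 and 82.8 CPM, and B barcodes at 28.3, 34.5, 45.4 and 79.7 CPM (14 barcodes in the last). Notch1 was higher in macrophage than in smooth muscle sums by 1.97 ± 0.20 on the log2 scale (the fitted value, smooth muscle minus macrophage, was -1.97, adjusted p = 1.76e-06). Against the endothelial class the sign depended on the barcodes used. The difference, endothelial minus macrophage, was -0.62 ± 0.20 in the assigned class (adjusted p = 0.0199) and 0.50 ± 0.22 in single-match barcodes (adjusted p = 0.0939). The first value was -0.39 and not called without the LysM-DKO/ApoE-/- western diet library. The order of Notch1 in endothelial cells and macrophages was therefore not settled.

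Jag1, the Jagged ligand of endothelium and smooth muscle (chr2:137081456-137116644, minus strand), was spread over the wall. The endothelial class held 55.4, 70.5, 65.0 and 67.6 CPM, the single-match barcodes 93.7, 117, 103 and 111 CPM, fibroblasts 69.2, 72.6, 55.8 and 62.3 CPM, and smooth muscle 43.7, 42.8, 46.7 and 31.1 CPM. Smooth muscle stayed below both other classes in every library. Jag1 was higher in endothelial than in smooth muscle sums by 0.59 ± 0.13 (adjusted p = 0.0105) and by 1.31 ± 0.21 in single-match barcodes (adjusted p = 0.000254). The first of these was lost without either LysM-DKO library (adjusted p = 0.114 without the normal diet one and 0.112 without the western diet one). Smooth muscle was lower than fibroblasts by 0.67 ± 0.13 (fitted value -0.67, adjusted p = 0.000933). Endothelial and fibroblast sums did not pass the test (-0.08, adjusted p = 0.711), nor did single-match barcodes (0.54, adjusted p = 0.101). Macrophages held 22.8 to 32.5 CPM and T barcodes 14.7 to 25.1 CPM.

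Notch2, a receptor known in smooth muscle and myeloid cells (chr3:98013527-98150361, plus strand), was held at similar levels by the wall classes. Levels were 54.2, 46.0, 69.1 and 51.8 CPM in the endothelial class, 60.2, 55.6, 81.4 and 56.9 CPM in smooth muscle, and 63.6, 62.0, 60.4 and 46.6 CPM in fibroblasts. None of the 3 contrasts among these classes passed the test (adjusted p = 0.400, 0.564 and 0.607). The single-match endothelial barcodes held less Notch2, at 14.3, 14.8, 40.6 and 38.2 CPM. There it was lower than in smooth muscle (-1.45 ± 0.32, adjusted p = 0.00287) and fibroblasts (-1.22 ± 0.33, adjusted p = 0.0164). Macrophages held 130, 68.1, 74.7 and 72.7 CPM, above the smooth muscle sums in 3 of 4 libraries and below that of WT/ApoE-/- on western diet (smooth muscle minus macrophage -0.56 ± 0.18, adjusted p = 0.0190). That call was lost without the WT normal diet library, whose macrophage sum of 92 barcodes was the highest, and without the LysM-DKO/ApoE-/- western diet library (-0.35 and -0.58). It was also lost with single-match barcodes (-0.62), without TMM (-0.38) and with no filter on low counts (-0.41).

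Notch3, the receptor of smooth muscle and pericytes (chr17:32120820-32166852, minus strand), stood at 29.6, 48.3, 26.7 and 24.8 CPM in smooth muscle. Fibroblasts held 15.1, 21.8, 14.8 and 18.1 CPM, and macrophages 12.6, 4.54, 8.95 and 4.28 CPM. All 4 smooth muscle libraries lay above all 4 fibroblast libraries. The difference was 0.86 ± 0.19 (adjusted p = 0.00216) against fibroblasts and 1.79 ± 0.26 against macrophages (adjusted p = 4.29e-05). The endothelial class held 25.02, 31.6, 18.0 and 26.5 CPM and did not pass the test against smooth muscle (-0.40, adjusted p = 0.219). Its single-match barcodes held 10.2, 22.3, 13.5 and 3.47 CPM, from 29 UMIs over the 4 libraries. These sums were lower than smooth muscle (-1.35 ± 0.33, adjusted p = 0.00631).

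Hes1, the widely expressed Hes repressor (chr16:30064384-30067796, plus strand), was about level between endothelium and smooth muscle. The endothelial class held 418, 328, 191 and 234 CPM, its single-match barcodes 370.5, 321, 189 and 180.4 CPM, and smooth muscle 395, 310, 175 and 208 CPM. The contrast was 0.04 ± 0.17 (adjusted p = 0.939) and -0.08 ± 0.23 in single-match barcodes (adjusted p = 0.841). Fibroblasts held 154, 149, 170 and 169 CPM. The 2 normal diet sums of smooth muscle lay well above the fibroblast sums, while the lower of the western diet sums was 175 against 170 CPM. Hes1 was higher in smooth muscle than in fibroblasts by 0.67 ± 0.17 (adjusted p = 0.00637) and in the endothelial class by 0.71 ± 0.17 (adjusted p = 0.00742). Both calls were lost without the WT normal diet library (0.46 and 0.48) and without the LysM-DKO normal diet library (0.55 and 0.56), and single-match endothelial barcodes did not pass the test against fibroblasts (0.69, adjusted p = 0.0507). Macrophages held 61.3 to 77.5 CPM, lower than each wall class.

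Hey2, the Hey repressor of arterial identity and vascular smooth muscle (chr10:30832359-30842801, minus strand), stood at 60.2, 53.8, 49.5 and 53.4 CPM in smooth muscle. Fibroblasts held 17.6, 19.7, 25.3 and 28.9 CPM, and macrophages 10.5, 9.99, 16.1 and 4.28 CPM. The 3 ranges did not overlap. Hey2 was higher in smooth muscle by 1.25 ± 0.18 against fibroblasts (adjusted p = 6.99e-05) and by 1.99 ± 0.23 against macrophages (adjusted p = 5.71e-06). The endothelial class (48.9, 40.5, 39.3 and 37.7 CPM) and its single-match barcodes (28.5, 44.5, 48.7 and 31.2 CPM) did not pass the test against smooth muscle (-0.46, adjusted p = 0.123, and -0.55, adjusted p = 0.0819). Both were higher than fibroblasts (0.79 ± 0.18, adjusted p = 0.00575, and 0.87 ± 0.25, adjusted p = 0.0205). The call in the assigned class was lost without the WT normal diet library (0.58) and without the LysM-DKO normal diet library (0.70).

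Heyl, a Hey-family repressor known in vascular smooth muscle (chr4:123233556-123249875, plus strand), changed side with the barcodes used for endothelium. Smooth muscle held 72.0, 68.3, 40.9 and 57.9 CPM and fibroblasts 28.8, 28.1, 19.4 and 38.2 CPM, a difference of 1.06 ± 0.11 (adjusted p = 4.28e-06). The endothelial class held 55.4, 52.7, 29.2 and 46.5 CPM and was higher than fibroblasts (0.60 ± 0.11, adjusted p = 0.00142). It was lower than smooth muscle (-0.46 ± 0.10, adjusted p = 0.0132), a call lost without the LysM-DKO normal diet library (-0.50) and without the WT/ApoE-/- library (-0.43). Its single-match barcodes held 6.11, 7.42, 16.2 and 13.9 CPM, from 19 UMIs over the 4 libraries. These sums were lower than fibroblasts (-1.39 ± 0.39, adjusted p = 0.0193), so the direction reversed, on few counts. They were also lower than smooth muscle, by 2.63 ± 0.35 on the log2 scale (fitted value -2.63, adjusted p = 3.49e-05). In T barcodes the thinned share with a Heyl UMI was 0.949%, 1.24%, 0.318% and 0%, against 6.21%, 5.82%, 3.72% and 4.96% in smooth muscle. The single-match endothelial shares of 0.725%, 0.803%, 3.18% and 1.96% lay near the T shares in the normal diet libraries. The endothelial shares there come from 138 and 249 barcodes.

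Hey1, the Hey gene of arterial endothelium (chr3:8663359-8667256, minus strand), stood at 19.7, 20.8, 8.27 and 18.3 CPM in the endothelial class and at 46.8, 30.9, 10.8 and 41.6 CPM in single-match barcodes. Smooth muscle held 10.97, 9.49, 7.36 and 11.5 CPM, and fibroblasts 9.49, 12.01, 6.65 and 13.8 CPM. Hey1 was higher in endothelial than in smooth muscle sums by 0.67 ± 0.19 (adjusted p = 0.0484), a call lost without the WT normal diet library or either LysM-DKO library. In single-match barcodes the difference was 1.63 ± 0.30 (adjusted p = 0.000638). Against fibroblasts the adjusted p was 0.0579 in the assigned class (0.60 ± 0.22) and 0.00273 in single-match barcodes (1.59 ± 0.33).

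**Figure D2:**
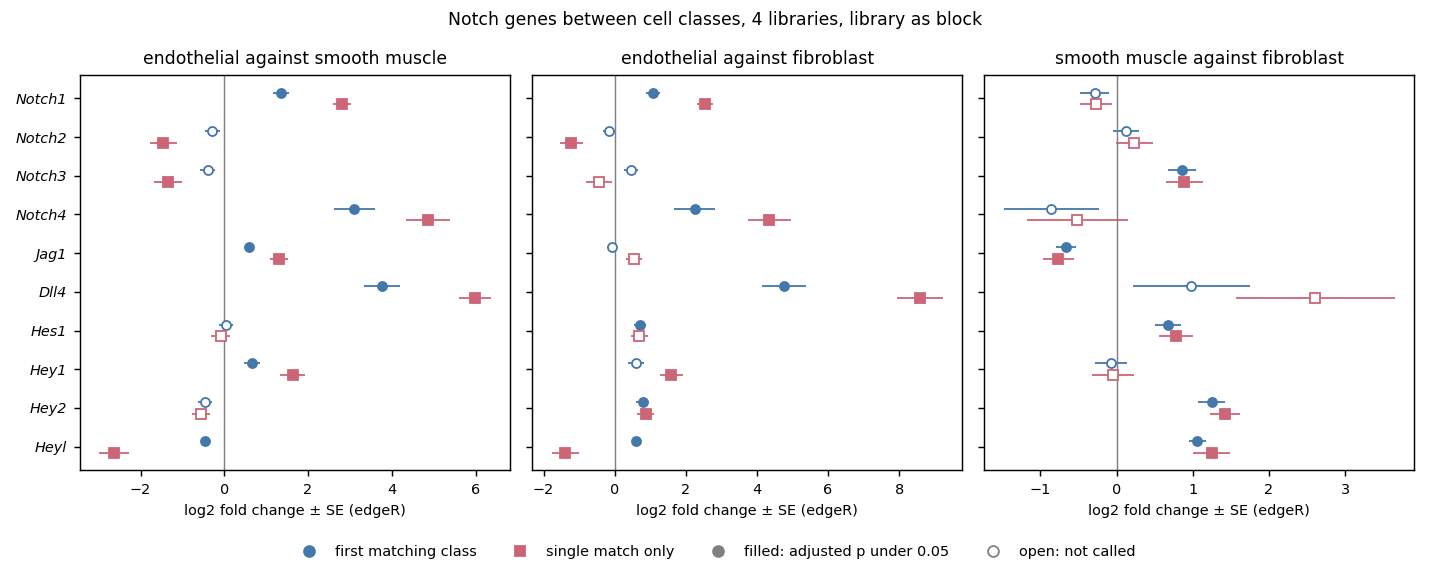
Log2 fold change with SE of each gene in 3 contrasts between classes (edgeR, 4 libraries), for barcodes in the first class matched (circles) and for single-match barcodes (squares), filled where the adjusted p was under 0.05. Dll4, Notch4, Notch1, Jag1 and Hey1 lie to the endothelial side of smooth muscle in both versions, Heyl lies to the smooth muscle side, and Heyl crosses 0 between versions against fibroblasts.

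Counted over the 10 genes, 5 were higher and 1 lower in endothelial than in smooth muscle sums, where 8.45% of all genes tested were called. With single-match barcodes 5 were higher and 3 lower (Notch2, Notch3 and Heyl), where 24.9% of genes were called. Against fibroblasts 6 were higher in the endothelial class (25.1% of genes called), with a median log2 fold change of 0.66 over the 10 against 0.03 over all genes tested. In single-match barcodes 5 were higher and 2 lower (19.4% called). Between smooth muscle and fibroblasts 4 were higher and 1 lower (38.8% called). Against macrophages all 10 were called for the endothelial class (51.8% of genes) and 8 in single-match barcodes (38.3%), 7 for smooth muscle (55%) and 8 for fibroblasts (49.2%). In these last 2 contrasts Notch1 and Notch2 were the 2 lower genes, while Hes1, Hey1, Hey2, Heyl and Notch3 were higher.

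The genes nearest in pattern were sought among 6368 genes of at least 20 mean CPM, by Pearson r of log2(CPM + 5) over the 16 sums after removal of library means. These values describe sums that share libraries, depth and class. Dll4 lay nearest to Nts (0.956), Gpihbp1 (0.939), which encodes a protein of capillary endothelium, and Cldn5 (0.936), the endothelial tight junction gene. Notch1 lay nearest to Fli1 (0.984), an ETS factor of endothelium and blood cells, and Hey2 to Kctd10 (0.994) and Tgfb1i1 (0.991). Among the members themselves the highest values were those of Hey2 and Heyl (0.970), Hes1 and Heyl (0.959), Dll4 and Notch4 (0.950), Hes1 and Hey2 (0.941), Notch3 and Hey2 (0.922) and Notch3 and Heyl (0.909), and Notch2 ran opposite to Hey1 (-0.798).

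Within the endothelial class, barcodes were divided at 2 summed UMIs of the capillary genes Gpihbp1, Rgcc and Car4, as a range of barcodes and not a cell type. The upper part held 186, 223, 41 and 31 barcodes, of which 52, 50, 19 and 9 had exactly 2 UMIs. Dll4 stood at 53.1, 92.7, 4.35 and 19.0 CPM in the upper part and at 10.3, 16.9, 2.73 and 5.87 CPM in the lower part. Notch4 stood at 33.3, 44.9, 6.53 and 12.7 CPM against 6.05, 12.2, 1.37 and 3.40 CPM. Both genes were higher in the upper part in 4 of 4 libraries. In the WT/ApoE-/- western diet library the whole endothelial class held 10 Dll4 and 7 Notch4 UMIs. The order of its parts therefore rests on few counts. Notch1 was higher in the upper part in 3 of 4 libraries, at 159, 185 and 76.0 CPM against 72.6, 105 and 52.2 CPM, and lower in the WT/ApoE-/- western diet library (32.6 against 43.1 CPM). The median barcode held 11, 9, 55 and 9 Acta2 UMIs in the upper part and 62, 12, 41 and 90.5 in the lower part, so smooth muscle RNA differed along with the capillary genes, and its part in these differences was not tested. Among single-match barcodes of the normal diet libraries, Dll4 stood at 132 and 196 CPM in the upper part against 57.1 and 53.2 CPM, while Jag1 stood at 25.2 and 66.4 CPM against 126 and 148 CPM.

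Within smooth muscle, barcodes were divided at 3 UMIs of Rgs5, a gene of pericytes and of some arterial smooth muscle. The upper part held 1082, 927, 3455 and 4043 barcodes, with 148, 176, 610 and 332 at exactly 3 UMIs. Notch1 was lower in the upper part in 4 of 4 libraries, at 25.7, 24.5, 20.1 and 16.2 CPM against 40.5, 43.8, 22.1 and 22.9 CPM. Notch2 was higher there in 4 of 4 libraries, at 67.4, 60.9, 89.2 and 59.6 CPM against 56.1, 52.2, 74.4 and 52.3 CPM. Median depth was greater in the upper part of every library (7618, 7246, 3908 and 7143 UMIs against 5008, 2687, 1764 and 6719), and was not tested as a part of these values.

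A list of 49 other pathway genes described the machinery around the members, of which 44 passed the filter. In endothelial against smooth muscle sums 7 of the 44 were called, each higher in the endothelial class, where 8.45% of all genes were called. They were the ligands Dll1 (1.89 ± 0.32, adjusted p = 0.00174) and Jag2 (1.45 ± 0.31, adjusted p = 0.00941), the glycosyltransferase Mfng (3.45 ± 0.63), the sheddases Adam10 (0.94 ± 0.15) and Adam17 (0.41 ± 0.12), the ubiquitin ligase gene Dtx1 (1.03 ± 0.28) and the Notch target Nrarp (0.80 ± 0.23, adjusted p = 0.0490). Dll1 stood at 31.5, 36.0, 7.97 and 15.8 CPM in the endothelial class and Nrarp at 18.9, 22.6, 4.14 and 6.19 CPM. Both were lowest in the WT/ApoE-/- western diet library. Rbpj, the DNA-binding partner of the receptors, did not pass this test (adjusted p = 0.999).

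Nrarp was also higher in smooth muscle than in fibroblasts (1.83 ± 0.32, adjusted p = 0.000379), where 6 of the 44 genes were higher and 10 lower and 38.8% of all genes were called. The largest of the lower ones was the ubiquitin ligase gene Dtx4 (-3.37 ± 0.38, adjusted p = 8.88e-06). Against macrophages 8 of the 44 were higher and 19 lower in smooth muscle, a contrast in which 55% of all genes were called. All 10 receptor-processing genes, which encode the sheddases, furin and the gamma-secretase subunits, were lower there, led by Aph1c (-4.14). Rbpj stood at 511, 368, 287 and 465 CPM in macrophages against 117, 115, 168 and 152 CPM in the endothelial class, and was lower in smooth muscle than in macrophages by 1.81 ± 0.17 on the log2 scale (fitted value -1.81, adjusted p = 9.50e-07). Lfng, a fringe glycosyltransferase, differed in the same direction (-4.76 ± 0.34, adjusted p = 8.73e-08).

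**Figure D3:**
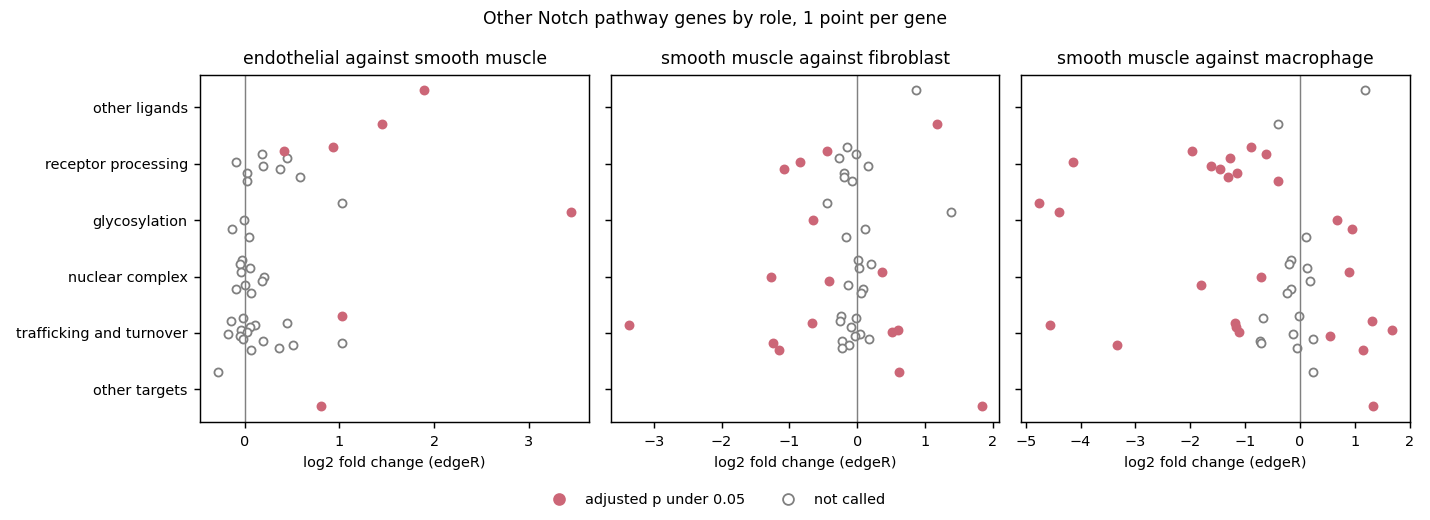
Log2 fold change of the other pathway genes by role in 3 contrasts between classes (edgeR), 1 point per gene, coloured where the adjusted p was under 0.05. Receptor-processing genes all lie on the macrophage side of smooth muscle, and the called genes of the endothelial contrast all lie on the endothelial side.

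The epsin genes Epn1 and Epn2 belong to the same list, since epsins act in the endocytosis of Notch ligands. In macrophages Epn1 stood at 81.7, 54.5, 52.4 and 42.8 CPM and Epn2 at 35.6, 33.6, 33.2 and 15.7 CPM, and 3′ counts of this kind can come from outside a deleted part, so they do not check the genotype labels.

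LysM-DKO was then set against WT within each diet, as log2 ratios of class levels with 0.5 UMIs added. A gene counted as past 2 fold when it had at least 20 UMIs over both libraries. Ratios that share a library are not independent. Over the endothelial, smooth muscle and fibroblast classes on normal diet, 0 members were past 2 fold (5.6% of all gene and class pairs were).

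In the endothelial class on normal diet, Dll4 was 32.8 CPM in LysM-DKO against 19.7 CPM in WT (log2 ratio 0.73, interval 0.37 to 1.11), Notch4 19.1 against 12.02 CPM (0.66, 0.19 to 1.15), Notch1 122 against 91.4 CPM (0.42, 0.24 to 0.59) and Jag1 70.5 against 55.4 CPM (0.35, 0.12 to 0.58). Hes1 was 328 against 418 CPM (-0.35, -0.44 to -0.26). The endothelial markers stood at 805 against 564 CPM in the same sums, and their part in these ratios was not tested. In single-match barcodes, where the marker sums were 2088 and 1977 CPM, the intervals of all 8 members with at least 20 UMIs held 0. Dll4 stood there at a log2 ratio of 0.37 and Notch1 at 0.32. In smooth muscle Notch3 was 48.3 against 29.6 CPM (0.71, 0.56 to 0.86), Hes1 310 against 395 CPM (-0.35) and Hey2 53.8 against 60.2 CPM (-0.16), and the other 7 intervals held 0. Erythroid markers (Hba-a1, Hbb-bs, Alas2) summed to 17440 CPM in the LysM-DKO smooth muscle sum against 10200 CPM. Their part in these ratios was not tested.

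On western diet the same contrast gave 3 member and class pairs past 2 fold, where 8.63% of all pairs were. Members tested numbered 10 in the endothelial class, 10 in smooth muscle and 8 in fibroblasts. In the endothelial class Hey1 was 18.3 against 8.27 CPM (1.13, 0.49 to 1.84) and Dll4 7.04 against 2.95 CPM (1.21, 0.14 to 2.48, from 25 and 10 UMIs). In fibroblasts Hey1 was 13.8 against 6.65 CPM (1.05, 0.33 to 1.81). In smooth muscle Hey1 was 11.5 against 7.36 CPM (0.64) and Heyl 57.9 against 40.9 CPM (0.50), while Notch2 was 56.9 against 81.4 CPM (-0.52, -0.59 to -0.44) and Jag1 31.1 against 46.7 CPM (-0.59, -0.69 to -0.48). Hey1 was thus higher in the LysM-DKO/ApoE-/- library in all 3 wall classes, and its intervals lay above 0. Heyl was higher in all 3 as well, at 46.5 against 29.2 CPM in the endothelial class and 38.2 against 19.4 CPM in fibroblasts. Over the members, 6 intervals lay above 0 and 1 below in the endothelial class. In smooth muscle 4 lay above and 3 below, and in fibroblasts 3 above and 1 below. These classes are not separate samples. In the LysM-DKO/ApoE-/- and WT/ApoE-/- libraries 83.2% and 78.9% of endothelial barcodes also passed the smooth muscle threshold, and 27.7% and 35.5% of fibroblast barcodes. Single-match endothelial barcodes gave 1.29 for Notch1 (0.69 to 1.93) and 1.21 for Dll4 (-0.18 to 2.82). The endothelial markers stood at 1464 against 746 CPM in these barcodes and at 255 against 162 CPM in the assigned class, and their part in the endothelial ratios was not tested.

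In macrophages, the cells a LysM driver would target, few members had counts enough to compare. On normal diet Notch2 was 68.1 against 130 CPM (-0.93, and -0.42 with an interval that held 0 in single-match barcodes), the intervals of the other 4 members with at least 20 UMIs held 0, and 8.94% of all genes were past 2 fold. On western diet Notch1 was 114 against 52.9 CPM (1.11, 0.72 to 1.49) and 13.2% of all genes in that class were past 2 fold. In single-match barcodes the Notch1 ratio was 1.07 (0.59 to 1.52). Hey2 was 4.28 against 16.1 CPM in the assigned class, of which 34.1% and 41.9% of barcodes also passed the smooth muscle threshold, and 2.63 against 3.05 CPM in single-match barcodes, from 1 and 7 UMIs.

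**Figure D4:**
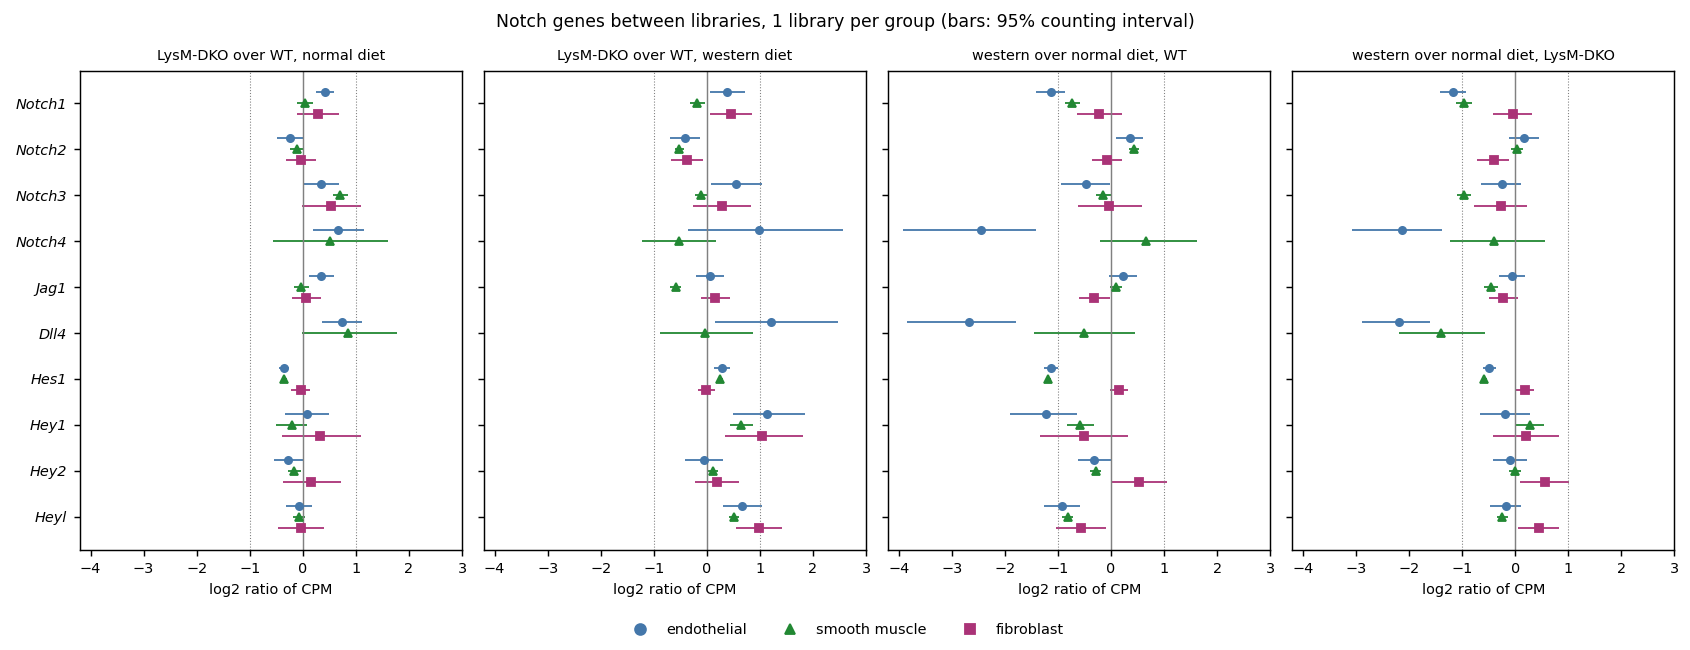
Log2 ratio of each gene between libraries in the endothelial, smooth muscle and fibroblast classes, with 95% counting intervals and dotted lines at 2 fold. There is 1 library per group. In both comparisons of western with normal diet, Dll4, Notch4 and Notch1 in the endothelial class lie below the lower dotted line.

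Western diet ApoE-/- libraries were set against normal diet libraries within each genotype, a contrast in which diet, ApoE genotype, sex and software version differ together. In the WT pair 5 of 10 members were past 2 fold in the endothelial class (14.5% of all genes tested there), 1 of 10 in smooth muscle (14.7%) and 0 of the 8 tested in fibroblasts (17.3%). In the LysM-DKO pair the counts were 3 of 10 (12.2%), 1 of 10 (19.7%) and 0 of 8 (11.6%). In the endothelial class Dll4 was lower in both genotypes (log2 ratio -2.67 in the WT pair, interval -3.84 to -1.80, and -2.20 in the LysM-DKO pair, interval -2.89 to -1.61). Notch4 (-2.45 and -2.13), Notch1 (-1.13 and -1.16) and Hes1 (-1.13 and -0.49) lay below 0 in both as well, with intervals that did not hold 0. The other member past 2 fold in the WT pair was Hey1, at 8.27 against 19.7 CPM, but it stood at 18.3 against 20.8 CPM in the LysM-DKO pair. Heyl stood at 29.2 against 55.4 CPM and at 46.5 against 52.7 CPM. In the WT pair 8 intervals lay below 0 and 1 above, and in the LysM-DKO pair 4 and 0. Single-match barcodes gave -1.91 and -1.46 for Notch4, from 3 and 5 UMIs on western diet, and -0.96 and -0.82 for Hes1. For Jag1 both intervals held 0 (0.23 and -0.06). The median over the 10 genes was -1.02 for the WT pair and -0.22 for the LysM-DKO pair, against -0.02 and 0.04 over all genes tested.

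The endothelial markers differed in the same direction between these sums, at 162 and 255 CPM on western diet against 564 and 805 CPM on normal diet. Kdr, the VEGF receptor, was lower by a log2 ratio of -2.21 and -3.35, and Cldn5 by -1.91 and -1.35. Scaled to the 6 endothelial markers, a scale chosen after the values were seen, Dll4 stood at 35.0, 40.8, 18.2 and 27.6 UMIs per 1000 marker UMIs, with intervals of 28.4 to 42.5, 34.8 to 47.5, 8.72 to 33.4 and 17.8 to 40.7. The intervals of WT on the 2 diets overlap on this scale, and so do those of LysM-DKO. They leave out the counting error of the markers, and their overlap is not a test of the ratio. Dll4 and Notch4 were still lower on western diet in both genotypes, in the assigned class and in single-match barcodes. Notch4 stood at 21.3, 23.7, 12.7 and 16.5 per 1000. In single-match barcodes Dll4 was also lower on the CPM scale (-2.02 in the WT pair, interval -3.51 to -0.93, and -1.19 in the LysM-DKO pair, interval -2.20 to -0.39), and Notch1 was lower in WT (-1.24) while its interval held 0 in LysM-DKO (-0.28, -0.70 to 0.11). The 6 endothelial markers were lower in these barcodes too, at 746 and 1464 CPM on western diet against 1977 and 2088 CPM, and their part was not tested. Notch2 was higher there on western diet (1.46 and 1.37), beside fibroblast markers of 11460 and 7375 CPM against 2974 and 1792 CPM, whose part was not tested.

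**Figure D5:**
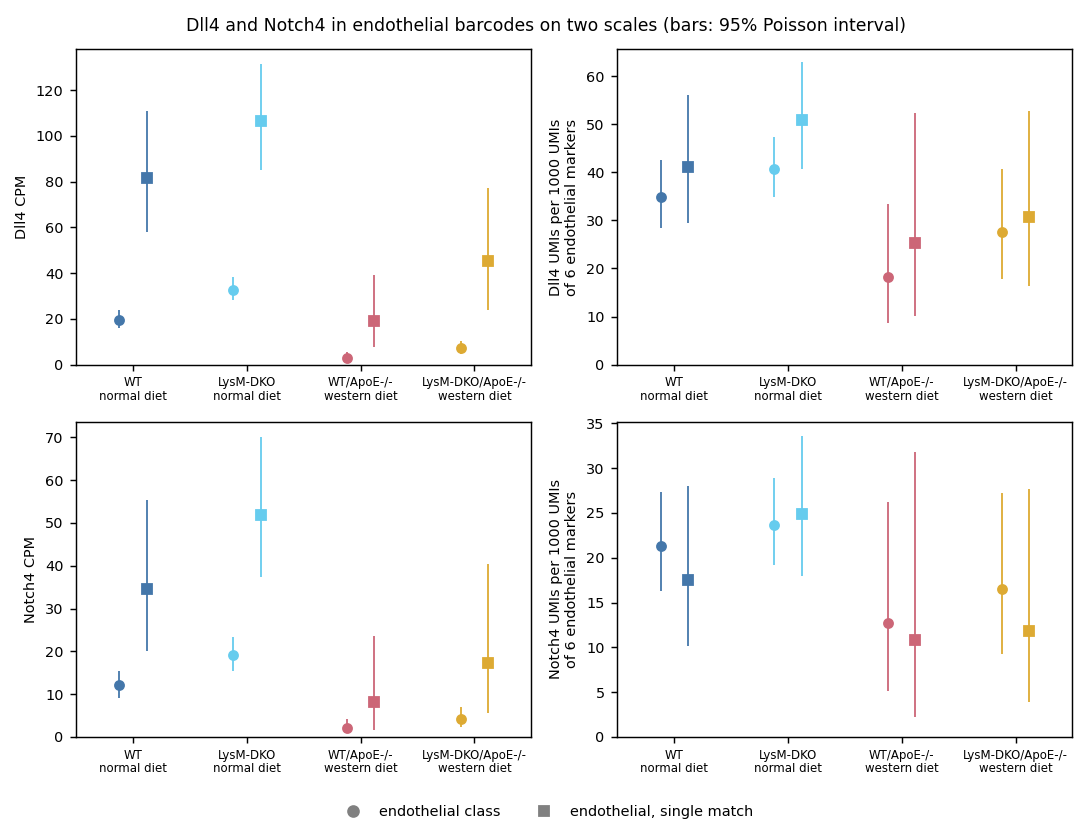
Dll4 and Notch4 in endothelial barcodes of each library as CPM (left) and per 1000 UMIs of 6 endothelial markers (right), linear axes from 0, bars 95% Poisson intervals, circles for the assigned class and squares for single-match barcodes. The gap between diets is wide as CPM. On the marker scale the western diet values remain lower within each genotype, with intervals that overlap between diets.

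Hes1 was lower on western diet in both endothelium and smooth muscle but not in fibroblasts. In smooth muscle the log2 ratio was -1.18 (interval -1.23 to -1.13) between the WT libraries and -0.58 between the LysM-DKO libraries, and in fibroblasts it was 0.15 and 0.18. The immediate early genes Fos, Jun, Egr1 and Atf3 were read after the Hes1 values were seen. Jun and Atf3 had the order of libraries of Hes1 in both classes, and were lower on western diet in fibroblasts in both genotypes. Fos stood at 4502, 2897, 1888 and 2385 CPM in smooth muscle and at 4357, 2900, 1856 and 2724 CPM in the endothelial class, and Egr1 at 4286, 3611, 1823 and 2018 CPM in smooth muscle, each in the order of libraries that Hes1 had in that class. In fibroblasts Egr1 (3869, 3683, 2188 and 3062 CPM) was lower on western diet in both genotypes and Fos (3181, 2155, 1512 and 2280 CPM) in WT, while Hes1 was not. In single-match endothelial barcodes Fos, Jun, Egr1 and Atf3 were not in the order of Hes1 (370.5, 321, 189 and 180.4 CPM). Egr1 stood there at 2400, 3043, 1492 and 1492 CPM and Fos at 2372, 1959, 1187 and 1516 CPM. Jun stood at 1421, 1371, 654 and 808 CPM and Atf3 at 656, 602, 149 and 302 CPM. Fos, Jun and Atf3 departed only between the western diet libraries, where the Hes1 intervals overlapped. All were lower on western diet in both genotypes, as Hes1 was. The part of these genes in the Hes1 values was not tested.

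Among the other members in smooth muscle, Dll4 stood at 0.601 against 1.57 CPM in the LysM-DKO pair (-1.39, -2.19 to -0.57, from 29 and 27 UMIs). Notch1 was lower on western diet in both genotypes (-0.73 and -0.96), and Heyl as well (-0.82 and -0.24). Notch3 was lower in LysM-DKO (-0.96, interval -1.09 to -0.83), where the normal diet level of 48.3 CPM was the highest of the 4 libraries. Notch2 was higher on western diet in WT (0.44). In fibroblasts Hey2 was higher in both genotypes (0.52 and 0.55), beside a median over all genes of 0.13 and 0.16 in that class.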

How the data were processed

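The authors deposited, for each library, a matrix of raw UMI counts by gene and barcode. Per the file headers these counts came from Cell Ranger 6.0.1 (normal diet) and 6.1.2 (western diet), while the submitters' processing notes name Cell Ranger 6.1.2 and Seurat 4.1.0 for all libraries and the build mm10. The annotation release, the strand setting and any doublet removal are not given in the sources used here. Gene positions were joined by gene ID to GENCODE M21 (GRCm38), and promoter bases are RefSeq's.

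Counts were summed per library and class, over barcodes that had 1000 UMIs or more and no more than 10% of them mitochondrial. No doublets were removed, and alternatives used single-match barcodes or took out the highest scrublet scores (scanpy 1.11.5). Sums of at least 20 barcodes were tested with edgeR 4.0.16 in R 4.3.3 (TMM, filterByExpr, glmQLFit, glmQLFTest), and the adjusted p-values printed are from that test. Library is a block because the classes of a library come from 1 preparation. The script was tested on simulated data. DESeq2 1.42.0 was an alternative. Ratios between libraries carry exact conditional binomial intervals, and CPM and marker-scaled levels carry exact Poisson intervals. Total UMIs kept were 40746006, 37789023, 53423800 and 56888546.

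The members, the class rule and the pathway and marker lists were chosen with earlier results of these data known. All 10 members are named. Other pathway genes are named as those with the largest change per role and contrast among those called, up to 2, with Nrarp, Rbpj, Epn1 and Epn2 given for their role. Of the 3 nearest patterns of each member, a few are named.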

Additional observations from a re-analysis of the deposited data

Results flagged for a closer look

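The LysM-DKO to WT ratio of Hes1 went opposite ways on the 2 diets. In the endothelial class the log2 ratio was -0.35 on normal diet and 0.29 on western diet, a difference of 0.64, and in smooth muscle it was -0.35 and 0.25, a difference of 0.60. Hey2 in smooth muscle did the same at a smaller size, with -0.16 and 0.11, a difference of 0.27. In each case both counting intervals lay apart from 0 on opposite sides. Fos, Jun, Egr1 and Atf3 also changed side, lower in LysM-DKO on normal diet and higher on western diet, in both classes. In smooth muscle Fos was 2897 against 4502 CPM on normal diet and 2385 against 1888 CPM on western diet. These 4 genes changed side in fibroblasts as well, where Hes1 was 149 against 154 CPM and 169 against 170 CPM. Their part was not tested. In single-match endothelial barcodes Hes1 did not change side: it stood at 370.5 and 321 CPM on normal diet and 189 and 180.4 CPM on western diet, with log2 ratios of -0.21 and -0.07 whose intervals held 0. With 1 library per group these differences were not tested.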

How the results depend on the processing

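The number of members called between endothelial and smooth muscle sums was 6, and 3 with no replicate block (library), 3 at 2000 UMIs or more per barcode, where 8 members were tested, and 3 to 5 when 1 library was left out (3 without either LysM-DKO library). At 500 UMIs or more, at no more than 20% mitochondrial UMIs and with the highest scrublet scores removed, 5 members were called, 4 higher and 1 lower. In these settings all genes called numbered 1009, 1065 and 1026. All genes called there numbered 1092 in the main setting, and 1183 at 2000 UMIs or more. With the libraries left out in turn, in the order of groups, they numbered 600, 501, 991 and 675. Without the LysM-DKO/ApoE-/- western diet library 9 members were tested. The cause was not tested. Left out in turn, the libraries gave 3 to 7 members between endothelial and fibroblast sums (3 without the WT or the LysM-DKO normal diet library). All genes called there numbered 1928, 1921, 3341 and 2594, against 3243. Between endothelial and macrophage 8 to 10 members were called (all genes 5551 to 6078, against 6696). Between smooth muscle and fibroblast 4 to 5 were called (3795 to 4694, against 5010). Between smooth muscle and macrophage 6 to 7 were called (6016 to 6558, against 7104). Between fibroblast and macrophage sums 5 to 8 were called (5318 to 5839, against 6349), with 5 without the LysM-DKO/ApoE-/- western diet library. With no replicate block, 54 of 60 calls or non-calls of single members held and 6 were lost, and all genes called between endothelial and smooth muscle numbered 344 against 1092, and 2738 with single-match barcodes and 2638 with doubled class thresholds. Between endothelial and fibroblast sums they numbered 1735 with no block and 2134 with single-match barcodes, against 3243. DESeq2 kept all 60.

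Directions reversed for Heyl between endothelial and fibroblast sums (-1.39 with single-match barcodes) and for Notch1 between endothelial and macrophage sums (0.50 with single-match barcodes and 0.17 with doubled thresholds). Without TMM the median of all genes moved from 0.12 to 0.38 between endothelial and macrophage sums, with 5186 higher and 2190 lower genes against 3607 and 3089, from 0.10 to 0.28 between smooth muscle and macrophage, and from 0.03 to 0.22 between fibroblast and macrophage. Members went from 5 higher and 1 lower to 5 and 0 between endothelial and smooth muscle, and from 8 and 2 to 8 and 1 between endothelial and macrophage.

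Members past 2 fold between LysM-DKO and WT on normal diet numbered 0 over the 3 wall classes, where 5.6% of all gene and class pairs were. They numbered 1 with single-match barcodes, 1 with doubled thresholds, 2 with equal weight for each barcode and 1 at 5 UMIs or more. On western diet they numbered 3 (8.63% of all pairs), and 5 with the highest scrublet scores removed and 1 with doubled thresholds. Western over normal diet in LysM-DKO gave 4, and 2 with doubled thresholds. In that contrast 12.2%, 19.7% and 11.6% of all genes were past 2 fold in the endothelial, smooth muscle and fibroblast classes. Shares of all genes under the alternative settings are not given here. Low counts limit Dll4 and Notch4 on western diet, where single-match barcodes held 7 and 13 Dll4 UMIs and 3 and 5 Notch4 UMIs. They also limit Heyl and Notch3 in single-match endothelial barcodes, with 19 and 29 UMIs over the 4 libraries.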
